A study of Homo sapiens with 12 samples.

Results

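The 41 genes described here belong to the unfolded protein response and to the ATF4 response. They comprise ATF4 with the regulators around it, enzymes and carriers of amino acid supply, the stress sensors of the endoplasmic reticulum (ER), and the chaperones, disulfide isomerases and degradation factors of the ER. Genes were taken from a list by symbol, and each was read from the probe set of that symbol alone with the highest mean log2 signal over the 12 arrays. Of the 41 genes, 40 had such a probe set and all 40 passed the filter on low values, among 13882 genes tested. SYVN1, an ER ubiquitin ligase, is on a probe set shared with a second symbol and was not used.

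The arrays measured messenger RNA in CL1-5 and CL1-0, human lung adenocarcinoma lines. Both come from the same tumour culture, and CL1-5 was derived as the more invasive one. Cells grown overnight in a microfluidic chip in medium with serum were moved to serum-free medium for 2 h, under a direct-current electric field of 300 mV/mm or at 0 mV/mm, and were then detached with trypsin. The 4 groups were CL1-5 under the field, CL1-5 without it, CL1-0 under the field and CL1-0 without it, each with 3 arrays that the labels call biological replicates. The controls therefore share the chip, the 2 h without serum and the trypsin with the field-exposed cells, and the labels do not say whether replicates were separate cultures, so p-values measure the spread between these arrays.

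When unfolded proteins collect in the ER, the sensors PERK (gene EIF2AK3), IRE1 (ERN1) and ATF6 signal to the nucleus. PERK phosphorylates the translation factor eIF2alpha, which slows protein synthesis but favours translation of ATF4, whose targets supply amino acids and, under lasting stress, include CHOP (DDIT3). IRE1 splices the messenger of XBP1, and XBP1 and cleaved ATF6 switch on ER chaperones and degradation factors. Lack of amino acids reaches ATF4 by another eIF2alpha kinase without ER stress.

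These factors are known to act through short promoter elements, and the stretches below show where members of both arms hold them. Windows from 250 bases before to 50 after the start were searched on both strands in RefSeq promoter sequences (GRCh38.p14), and 35 members had a window. The ER stress element, CCAAT and CCACG with 9 bases between them, was found in 7 of these 35 genes, against 0.0916% of the 27305 genes with a window. Its variant ERSE-II, ATTGG and CCACG with 1 base between them, was found in 3 of them (0.0696% of all genes) and the unfolded protein response element, TGACGTGG, in HYOU1 (0.927% of all genes), where it overlaps an ERSE-II match. A core of the element bound by ATF4 and its partners, TGATGNAA, was found in ASNS, CHAC1, HERPUD1 and SLC3A2 (4.46% of all genes). The 7 genes with the ER stress element are among the 25 that make up its share of all genes. Members were listed as genes of these responses, so the shares describe the list and test nothing. A match describes these letters and is not a measured binding site. The following stretches run 5′ to 3′ on the strand of the gene, with every match to these motifs on either strand in capitals and 30 bases on each side.
ASNS: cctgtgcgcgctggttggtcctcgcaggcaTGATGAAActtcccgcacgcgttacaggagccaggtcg
CHAC1: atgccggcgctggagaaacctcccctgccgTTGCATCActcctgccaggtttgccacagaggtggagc
HERPUD1: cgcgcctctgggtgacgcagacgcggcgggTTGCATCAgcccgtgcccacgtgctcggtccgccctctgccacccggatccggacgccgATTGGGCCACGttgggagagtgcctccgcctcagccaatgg
HSPA5: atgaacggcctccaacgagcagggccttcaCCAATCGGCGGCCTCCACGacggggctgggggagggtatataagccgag
CANX: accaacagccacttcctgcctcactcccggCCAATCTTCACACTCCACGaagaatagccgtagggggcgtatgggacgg
PDIA6: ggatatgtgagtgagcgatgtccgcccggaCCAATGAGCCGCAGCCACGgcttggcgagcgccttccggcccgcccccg
HSP90B1: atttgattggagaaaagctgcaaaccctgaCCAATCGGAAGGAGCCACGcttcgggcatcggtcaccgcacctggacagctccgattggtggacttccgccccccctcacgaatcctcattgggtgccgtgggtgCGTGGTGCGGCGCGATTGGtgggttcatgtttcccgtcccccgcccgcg
CRELD2: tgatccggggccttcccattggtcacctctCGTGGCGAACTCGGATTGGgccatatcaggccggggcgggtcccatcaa

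The stretch of ASNS lies at chr7:97872439-97872506 on the minus strand, that of CHAC1 at chr15:40953232-40953299 on the plus strand, and that of HERPUD1 at chr16:56931936-56932065 on the plus strand. HSPA5 was read at chr9:125241361-125241439 on the minus strand, CANX at chr5:179698748-179698826 on the plus strand and PDIA6 at chr2:10812823-10812901 on the minus strand. HSP90B1 was read at chr12:103930186-103930369 and CRELD2 at chr22:49918524-49918602, both on the plus strand. All lie upstream of the annotated start of the window used. CANX has 4 windows, and in another of them the same match begins at −9 and runs past the start. HERPUD1, which links ER stress to protein degradation, held both an ATF4-type core and an ERSE-II match, and HSP90B1 held the ER stress element at a pair of places in opposite orientation. The match of SLC3A2 began 38 bases into the transcribed region and is not printed. XBP1 and CALR held the ER stress element too, and HYOU1 and SDF2L1 held ERSE-II.

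The deposited values are array intensities, with array medians of 60.7 to 72.4. Replicate 1 of every group stood apart: the 3′ probe set of dap, an RNA spiked in as a labelling control, read 3.638 to 14.46 on these 4 arrays and 1253 to 1665 on the other 8. A probe set of 18S ribosomal RNA read 49.67 to 134.1 on these 4 arrays and 5577 to 8406 on the other 8. The ratio of the 3′ to the 5′ probe set of ACTB was 1.259 to 1.535 and 1.212 to 1.319. Among the members, 13 of 40 (32.5%) were higher on replicate 1 than on both other replicates in all 4 groups, against 18.1% of all genes, and 7 (17.5%) were lower in all 4, against 20.9%. Results on the lines are therefore also given from replicates 2 and 3 alone. Of 6 epithelial markers, KRT7, KRT8 and KRT18 were above the array median on all 12 arrays, while CDH1 and EPCAM averaged 69.3 and 31.5 in CL1-5 under the field, against 917 and 735 in CL1-0 under the field. KRT19 was above the median on 2 arrays and averaged 3.61 in CL1-5 and 56.3 in CL1-0 under the field. The summed epithelial signal, carried mostly by KRT18, was 18700 to 32700 in CL1-5 and 4420 to 24700 in CL1-0 under the field. Without the field it was 16400 to 25400 in CL1-5 and 3190 to 18700 in CL1-0. The leukocyte markers PTPRC and CD14 and the endothelial markers CDH5 and VWF were above the median on no array, while the leukocyte marker CD3E was above it on 6. Of the fibroblast markers, COL1A1 was above the median on all 12 arrays, DCN on 7, PDGFRB on 4 and COL1A2 on 2. The endothelial sum, carried by the probe set of PECAM1, was 201 to 1620 in CL1-5 and 94.6 to 180 in CL1-0 under the field, and 332 to 1140 in CL1-5 and 106 to 155 in CL1-0 without it. The part of these marker levels in the results was not tested.

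Part of the ATF4 response was lower in CL1-5 than in CL1-0, 8 of its 19 members under the field and 5 without it, while ATF4 itself did not pass. Under the field 9 of 40 members were lower in CL1-5 and 0 were higher, at a Benjamini-Hochberg adjusted p below 0.05 in a limma fit to all genes, against 9.63% of all genes lower and 9.81% higher. Without the field 6 members were lower and 0 higher, against 8.93% of all genes lower and 9.03% higher. At an unadjusted p below 0.05, 16 members differed under the field and 12 without it, in either direction, against 31.3% and 29.5% of all genes. The 6 genes lower without the field, DDIT3, ASNS, ALDH1L2, SLC7A5, SLC3A2 and EIF2AK3, were lower under the field too, where SESN2, CHAC1 and PSAT1 also passed. All but EIF2AK3, the gene of PERK, belong to the 19 genes of ATF4, its regulators and amino acid supply. In bulk RNA, fewer cells of a type and less RNA per cell cannot be told apart.

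Same-numbered arrays mostly correlated more closely than others (values given with the processing). A fit with the replicate number as a block called more members. With the block, 10 members were lower and 9 higher under the field (20.8% and 17.3% of all genes), and 12 were lower and 7 higher without it (18.8% and 16.7% of all genes). From replicates 2 and 3 alone, 12 were lower and 6 higher under the field (16.9% and 14.9% of all genes), and 10 were lower and 4 higher without it (16.4% and 14.4% of all genes). With the mean of each gene's probe sets in place of the highest one, 7 were lower and 3 higher under the field (9.24% and 9.03% of all genes), and 6 were lower and 3 higher without it (8.42% and 9.03% of all genes). The ranges of CL1-5 and CL1-0 were separate for 10 lower and 6 higher members under the field (19.0% and 16.8% of all genes), and for 10 lower and 5 higher without it (17.9% and 16.1% of all genes). The groups compared under the field and without it are different arrays, but all 12 arrays share one estimate of the spread. The tests at both settings are therefore not independent, and each group has 3 arrays.

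**Figure D1:**
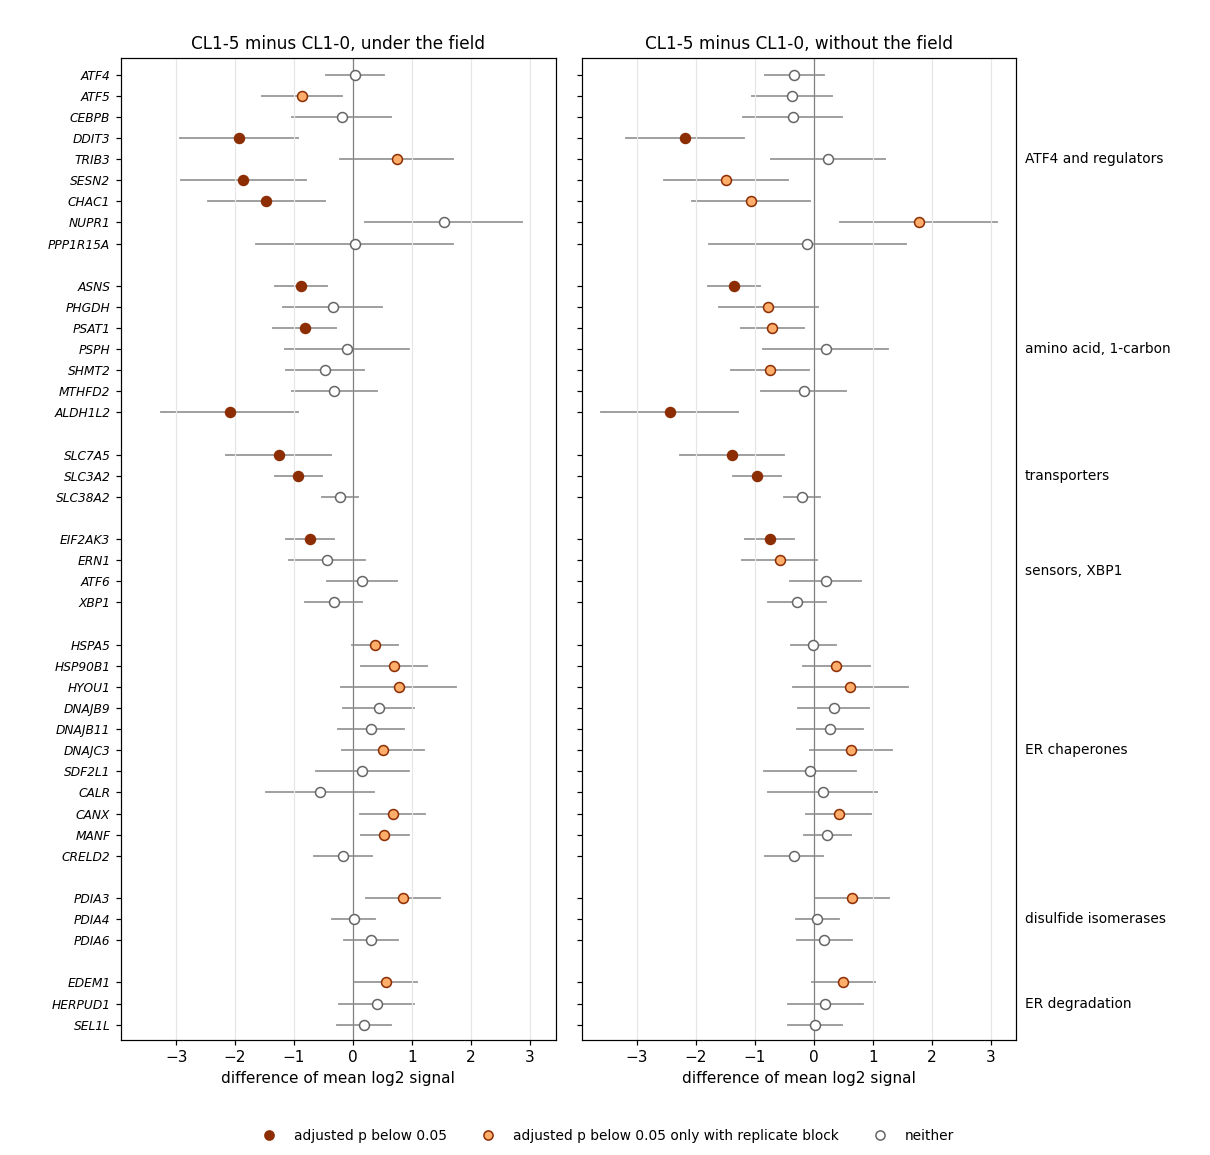
Difference of the mean log2 signal, CL1-5 minus CL1-0, for the 40 members under the field (left) and without it (right), with bars for the 95% confidence interval. Filled dark points passed the test in the fit of 4 group means (9 and 6 members, all below 0). Light points passed only with the replicate block, and the ER folding and degradation members among them are all above 0.

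The members are described next by arm. Of the 19 ATF4 response members, 8 were lower in CL1-5 under the field and 5 without it, and 0 were higher, against 9.63% and 8.93% of all genes lower. Their median difference was −0.47 log2 under the field and −0.71 without it, with 15 and 16 of 19 below 0, against −0.08 and −0.03 over all genes. Of the 17 ER folding and degradation members 0 were called by limma, with a median difference of 0.40 under the field (15 of 17 above 0) and 0.23 without it (14 of 17 above 0). With the replicate block 8 of these 17 were higher under the field and 6 without it, and 0 were lower, against 17.3% and 16.7% of all genes higher. From replicates 2 and 3 alone the counts were 6 and 4 higher, and 0 lower, against 14.9% and 14.4% of all genes higher. With the mean of probe sets CANX, DNAJC3 and HSPA5 were higher at both settings. These lists were chosen with results of these arrays known, and their counts describe the members only.

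Summed up per array, the median of the 19 ATF4 response members, each centred on its own mean over the 12 arrays, was 0.02, −0.35 and −0.42 log2 in CL1-5 under the field, against 0.55, 0.05 and 0.32 in CL1-0 under the field. Without the field it was −0.12, −0.50 and −0.48 in CL1-5, against 0.58, 0.20 and 0.41 in CL1-0. At each replicate number CL1-5 lay below CL1-0. The 17 ER members had medians of 0.13, 0.24 and 0.24 in CL1-5 and −0.21, −0.06 and −0.16 in CL1-0 under the field. Without it they had medians of 0.29, 0.07 and −0.01 in CL1-5 and −0.16, −0.19 and −0.08 in CL1-0. Here all CL1-5 arrays lay above all CL1-0 arrays at both field settings.

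Among the regulators, ATF4 itself did not pass. Its signal was 31470, 19260 and 16540 in CL1-5, against 23380, 17820 and 22370 in CL1-0 under the field, and 18860, 14490 and 20020 in CL1-5, against 23920, 19990 and 22640 in CL1-0 without it. The difference was 0.04 ± 0.23 log2 (SE) under the field and −0.33 ± 0.23 without it, with 95% intervals of −0.46 to 0.53 and −0.83 to 0.17. The lines overlapped at both settings. With the block the adjusted p was 0.886 under the field and 0.147 without it. With the block and only the groups compared, ATF4 passed as lower without the field (−0.33 ± 0.10, adjusted p = 0.0385). ATF4 is controlled largely by translation, which messenger levels do not show.

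DDIT3 encodes CHOP, a transcription factor of prolonged stress. Its signal was 525.7, 247.8 and 219.3 in CL1-5, against 1503, 641.2 and 1662 in CL1-0 under the field. At 0 mV/mm it was 421.6, 289.3 and 290 in CL1-5, against 1399, 954.6 and 2454 in CL1-0. Every CL1-5 array was below every CL1-0 array. The difference was −1.94 ± 0.46 under the field (3.83-fold lower, adjusted p = 0.0111) and −2.18 ± 0.46 without it (4.52-fold lower, adjusted p = 0.00592). Without replicate 3 of CL1-0 under the field, the first of these was −1.68 with an adjusted p of 0.0528.

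SESN2, sestrin 2, restrains the growth kinase mTORC1 when leucine is short. It read 432.2, 214.1 and 212.6 in CL1-5, against 1514, 558.4 and 1113 in CL1-0 under the field, and 538.8, 202.2 and 285.3 in CL1-5, against 1441, 615 and 776.1 in CL1-0 without it. The lines did not overlap at either setting. SESN2 was 3.63-fold lower in CL1-5 under the field (−1.86 ± 0.48, adjusted p = 0.0183), and −1.49 ± 0.48 without it, where the adjusted p was 0.053 and, with the replicate block, 0.000103. Its signal on replicate 1 lay above the other replicates by 1.05 log2 on average over the groups. The call under the field was lost without CL1-5 replicate 2 or 3 or CL1-0 replicate 1 or 3 under the field, with adjusted p of 0.0621 to 0.0691, and with the mean of probe sets (−1.63, adjusted p = 0.126).

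CHAC1, which breaks down glutathione, read 389.2, 124.9 and 149.5 in CL1-5, against 884.1, 309.6 and 567.3 in CL1-0 under the field. At 0 mV/mm it read 251.9, 263.7 and 336.1 in CL1-5, against 754.5, 458.6 and 591.7 in CL1-0. The lines overlapped under the field, where replicate 1 of CL1-5 exceeded replicate 2 of CL1-0, and did not overlap without it. The difference was −1.47 ± 0.46 under the field (2.77-fold lower, adjusted p = 0.0405) and −1.07 ± 0.46 without it (adjusted p = 0.138, and 0.0191 with the block). With 1 array left out at a time, the first call held in 4 of the 12 fits. It held without replicate 1 of CL1-5 or replicate 2 of CL1-0 under the field, and without replicate 1 of either line at 0 mV/mm. It was lost in the other 8, with adjusted p of 0.0512 to 0.141. Among the other settings it was lost with no filter (0.0546), no eBayes trend (0.0528) and only the groups compared (0.104), and held in 9. These include quantile normalization (adjusted p = 0.0317), the replicate block (0.00291) and replicates 2 and 3 alone (−1.62, adjusted p = 0.00317).

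The other regulators did not pass in the fit of 4 group means. ATF5, a factor translated under eIF2alpha phosphorylation, differed by −0.86 ± 0.31 under the field (adjusted p = 0.0769, 0.00313 with the block, and 0.00824 from replicates 2 and 3) and by −0.37 ± 0.31 without it. NUPR1, a small nuclear stress protein, ran the other way, with 854.9, 220.5 and 646.5 in CL1-5, against 122.4, 213.4 and 191.7 in CL1-0 under the field, and 776.1, 320.7 and 167.5 in CL1-5, against 75.09, 82 and 168.5 in CL1-0 without it. The CL1-5 arrays spread widely, and 1 array of CL1-5 without the field fell within the range of CL1-0. The difference of NUPR1 was 1.54 ± 0.61 under the field (adjusted p = 0.102, and 0.0516 with the block) and 1.78 ± 0.61 without it (adjusted p = 0.0637, and 0.0293 with the block). Without replicate 2 of CL1-5 under the field, NUPR1 passed at both settings (2.12 with an adjusted p of 0.0321, and 1.78 with 0.0402), and without replicate 3 of CL1-5 at 0 mV/mm it passed there (2.30, adjusted p = 0.0316). TRIB3, a pseudokinase induced by ATF4 and CHOP, differed by 0.74 ± 0.44 under the field (adjusted p = 0.285, and 0.00537 with the block) and by 0.24 ± 0.44 without it. CEBPB, a partner of ATF4, gave −0.19 ± 0.38 and −0.36 ± 0.38, and PPP1R15A, the phosphatase subunit that reverses eIF2alpha phosphorylation, gave 0.03 ± 0.76 and −0.11 ± 0.76. PPP1R15A was the member with the largest replicate 1 shift, 1.83 log2 on average.

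ASNS, asparagine synthetase, makes asparagine and is a standard reporter of the ATF4 response. It read 8060, 7374 and 4944 in CL1-5, against 12560, 11640 and 12420 in CL1-0 under the field. Without the field it read 4752, 3994 and 5596 in CL1-5, against 11490, 11530 and 13580 in CL1-0. The lines were far apart at both settings, and the CL1-0 arrays lay close together. The difference was −0.88 ± 0.20 under the field (1.84-fold lower, adjusted p = 0.00961) and −1.36 ± 0.20 without it (2.57-fold lower, adjusted p = 0.000571). Both calls held without each array in turn.

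PSAT1, which makes phosphoserine on the path to serine, read 3634, 5148 and 3661 in CL1-5, against 7425, 6458 and 7937 in CL1-0 under the field, and 2994, 4599 and 5778 in CL1-5, against 5998, 7105 and 8111 in CL1-0 without it. No CL1-5 array reached the lowest CL1-0 array at either setting. It was 1.77-fold lower under the field (−0.82 ± 0.25, adjusted p = 0.0347) and differed by −0.71 ± 0.25 without it (adjusted p = 0.0696, and 0.0121 with the block). The call under the field was lost without any of CL1-5 replicates 1 and 3 and CL1-0 replicates 1, 2 and 3 under the field, or CL1-0 replicate 2 without it (adjusted p of 0.0512 to 0.115), and with arrays centred on their median (0.061) or no eBayes trend (0.0587).

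ALDH1L2, a mitochondrial enzyme of folate metabolism, read 39.76, 105.9 and 148.5 in CL1-5, against 247.5, 357.8 and 542.6 in CL1-0 under the field. At 0 mV/mm it read 60.66, 63.09 and 93.29 in CL1-5, against 262.8, 297.3 and 732.6 in CL1-0. The lines did not overlap, and 3 of the 6 CL1-5 arrays were below their own array median. The difference was −2.09 ± 0.53 under the field (adjusted p = 0.0164) and −2.44 ± 0.53 without it (adjusted p = 0.00733). With values under the array median set to it, ALDH1L2 was 3.48-fold lower under the field and 5.07-fold lower without it. Without replicate 1 of CL1-5 the difference under the field was −1.54 (adjusted p = 0.0512), and without replicate 3 of CL1-0 it was −1.80 (adjusted p = 0.0727). A second probe set of the gene, which was not used, gave −1.61 and −0.56, and with the mean of its probe sets both calls were lost (−1.85 with an adjusted p of 0.136, and −1.50 with 0.245).

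The remaining enzymes stood between these. PHGDH, which starts serine synthesis, differed by −0.34 ± 0.38 under the field and −0.77 ± 0.38 without it (adjusted p = 0.212, and 0.0124 with the block). SHMT2, which passes a carbon unit from serine to folate in mitochondria, differed by −0.47 ± 0.30 and −0.75 ± 0.30 (adjusted p = 0.12 for the second, and 0.00619 with the block). MTHFD2, the next folate enzyme, gave −0.32 ± 0.33 and −0.17 ± 0.33, and PSPH, the last step to serine, gave −0.10 ± 0.48 and 0.20 ± 0.48. From replicates 2 and 3 alone, SHMT2 was lower in CL1-5 under the field (−0.61, adjusted p = 0.0158) and without it (−0.66, adjusted p = 0.0117). PHGDH then passed without the field (−1.07, adjusted p = 0.00132) and MTHFD2 under it (−0.44, adjusted p = 0.0368). SHMT2 also passed at both settings without replicate 1 of CL1-5 under the field (adjusted p = 0.0442 and 0.038). All 7 enzymes were below 0 under the field, and 6 of 7 without it, but the sign of PSPH was not stable. Under the field it read 2322, 8730 and 10690 in CL1-5, and its difference was 0.58 without the first of these arrays. From replicates 2 and 3 alone it was 0.38 (adjusted p = 0.0644). The other probe sets of PSPH gave −1.37 and −0.52 under the field, and −0.78 and −0.17 without it.

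The transporters SLC7A5 and SLC3A2 encode the light and the heavy chain of one amino acid exchanger. SLC7A5 read 2438, 1348 and 897.4 in CL1-5, against 4399, 3216 and 2883 in CL1-0 under the field, and 2162, 834.8 and 979 in CL1-5, against 4058, 2690 and 2882 in CL1-0 without it. SLC3A2 read 2178, 1839 and 1530 in CL1-5, against 3751, 3371 and 3322 in CL1-0 under the field, and 2168, 1726 and 1729 in CL1-5, against 3824, 3540 and 3571 in CL1-0 without it. Both chains were below the range of CL1-0 on every CL1-5 array. SLC3A2 differed by −0.93 ± 0.18 under the field (1.90-fold lower, adjusted p = 0.00417) and −0.97 ± 0.18 without it (1.96-fold lower, adjusted p = 0.00328), and both calls held without each array in turn. SLC7A5 differed by −1.26 ± 0.41 (2.40-fold lower, adjusted p = 0.0477) and −1.38 ± 0.41 (2.61-fold lower, adjusted p = 0.0339).

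The SLC7A5 call depended on single arrays and settings, while the direction did not. With 1 array omitted, the call under the field held only without CL1-5 replicate 1 there or CL1-5 replicates 1 or 2 at 0 mV/mm. It was lost in the other 9 fits (adjusted p of 0.0506 to 0.173). Without the field it was lost without CL1-5 replicate 2 or 3 or any CL1-0 replicate at that setting (5 fits, adjusted p of 0.0614 to 0.128). With all arrays, the call under the field was also lost with quantile normalization (adjusted p = 0.0511), no filter (0.0575), no eBayes trend (0.0682) and only the groups compared (0.0589), and the call without the field with no trend (0.0512). Both calls held with the replicate block (adjusted p = 0.000427 under the field and 0.000233 without it). They also held from replicates 2 and 3 alone (0.000421 and 0.000219). SLC38A2, a glutamine transporter, differed by only −0.22 ± 0.14 and −0.20 ± 0.14, with intervals of −0.52 to 0.09 under the field and −0.51 to 0.10 without it.

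**Figure D2:**
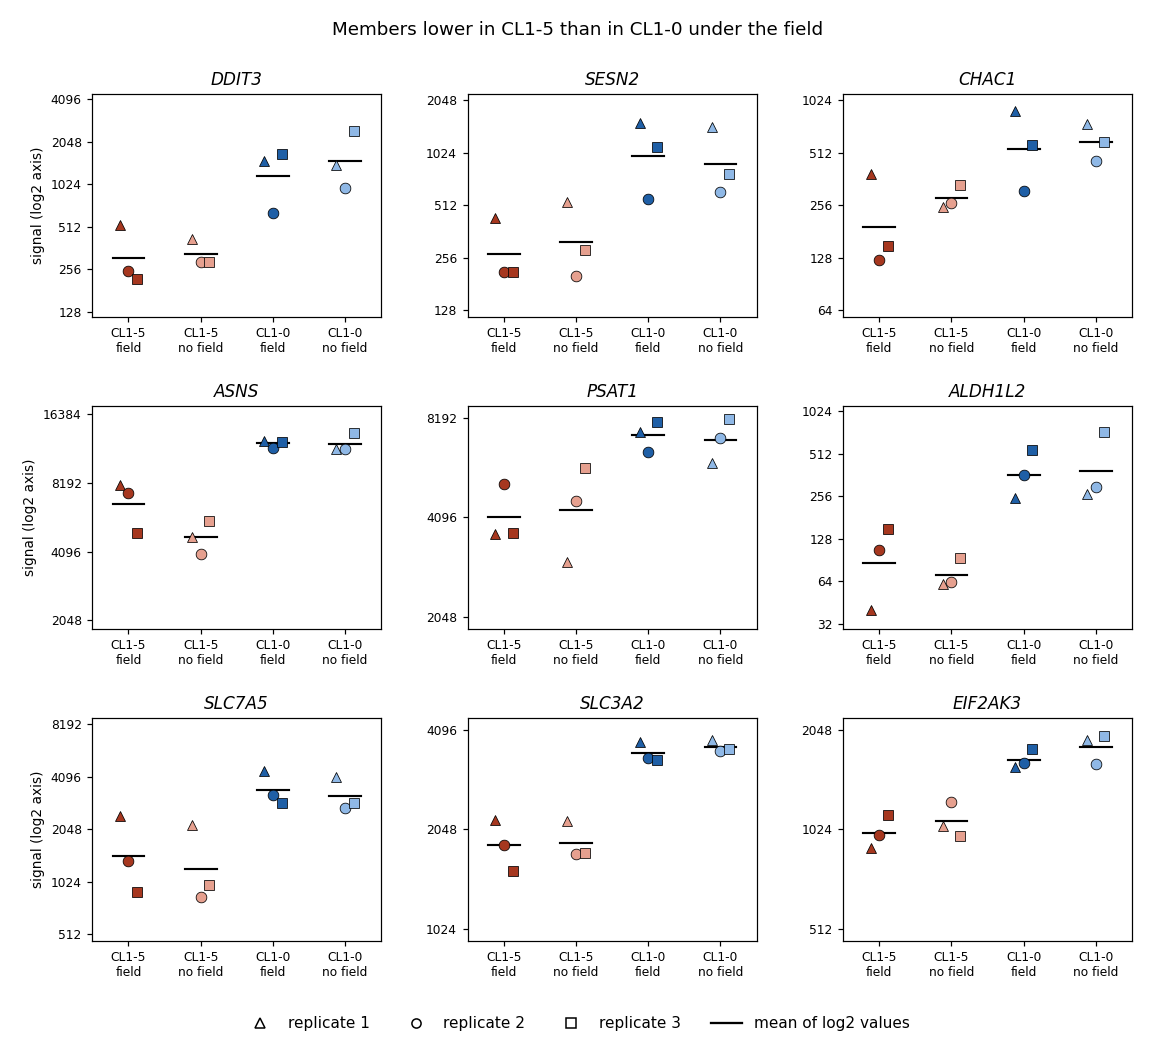
Signal on each array (log2 axis) for the 9 members lower in CL1-5 under the field, with triangles, circles and squares for replicates 1, 2 and 3 and a bar at the mean of the log2 values. For DDIT3, ASNS, SLC3A2 and EIF2AK3 each CL1-5 array lies below all CL1-0 arrays at both field settings, while CHAC1 overlaps under the field.

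Of the sensors, EIF2AK3 alone passed. PERK, its product, is the ER-resident eIF2alpha kinase. EIF2AK3 read 895.6, 981.8 and 1130 in CL1-5, against 1577, 1623 and 1785 in CL1-0 under the field, and 1050, 1238 and 977.6 in CL1-5, against 1901, 1611 and 1965 in CL1-0 without it. The lines did not overlap at either setting. It was 1.66-fold lower under the field (−0.73 ± 0.19, adjusted p = 0.0167) and 1.68-fold lower without it (−0.75 ± 0.19, adjusted p = 0.0159). The call under the field was lost without CL1-0 replicate 3 (−0.68, adjusted p = 0.0685), and the call without the field was lost without CL1-5 replicate 3 (−0.67, adjusted p = 0.0663) or CL1-0 replicate 3 (−0.69, adjusted p = 0.0635). In a fit to only the groups compared both calls were lost (adjusted p = 0.0607 under the field and 0.063 without it). ERN1, the gene of IRE1, differed by −0.44 ± 0.29 and −0.58 ± 0.29 (adjusted p = 0.21 without the field, and 0.0249 with the block). The other probe sets of ERN1 gave −0.12 and −0.19 under the field, and 0.13 and −0.51 without it. ATF6 gave 0.15 ± 0.27 and 0.20 ± 0.27, and XBP1 gave −0.33 ± 0.22 and −0.29 ± 0.22. The arrays do not show splicing of XBP1 or cleavage of ATF6.

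Most ER chaperones had positive differences, none passed in the fit of 4 group means, and their calls came with the replicate block, replicates 2 and 3 alone or the mean of probe sets, and for HSP90B1 and CANX under the field also without 1 array (adjusted p = 0.0455 without replicate 1 of CL1-5 at 0 mV/mm, and 0.0493 without replicate 2 of CL1-5 under the field). HSPA5 (BiP), the main ER chaperone and a regulator of the sensors, read 25490, 25830 and 26170 in CL1-5, against 23080, 19100 and 17930 in CL1-0 under the field, and 26320, 18460 and 17720 in CL1-5, against 23660, 18030 and 20550 in CL1-0 without it. Under the field CL1-5 lay above CL1-0, and without it the lines overlapped. The difference was 0.37 ± 0.18 under the field (adjusted p = 0.172, and 0.0322 with the block) and −0.01 ± 0.18 without it. A second HSPA5 probe set gave 1.55 and 1.27, so the probe sets disagree in size and, without the field, in sign. With the mean of both, HSPA5 was higher by 0.96 (adjusted p = 0.00412) and 0.63 (adjusted p = 0.0409), and from replicates 2 and 3 alone it was higher by 0.49 under the field (adjusted p = 0.00288).

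HSP90B1 (GRP94) differed by 0.69 ± 0.26 under the field (adjusted p = 0.0862, and 0.000927 with the block) and by 0.38 ± 0.26 without it (0.39, and 0.0324 with the block). CANX, calnexin, which holds newly made glycoproteins, read 24480, 12260 and 13820 in CL1-5, against 10850, 9747 and 9726 in CL1-0 under the field, and 18140, 11510 and 11980 in CL1-5, against 11470, 9754 and 9322 in CL1-0 without it. Every CL1-5 array was above every CL1-0 array, narrowly without the field, and replicate 1 was the highest in each group. Its difference was 0.67 ± 0.25 (adjusted p = 0.0884, and 0.00419 with the block) and 0.42 ± 0.25 (0.313, and 0.0477 with the block). The other 3 probe sets of CANX gave 0.69 to 1.14 under the field and 0.56 to 0.77 without it, and with the mean of all CANX was higher at both settings (adjusted p = 0.00402 and 0.029).

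HYOU1, an exchange factor of BiP, differed by 0.78 ± 0.45 under the field and 0.61 ± 0.45 without it, and DNAJC3, a BiP co-chaperone, by 0.51 ± 0.32 and 0.63 ± 0.32. With the block both were higher in CL1-5 at both settings (adjusted p of 0.00571 and 0.0217 for HYOU1 and of 0.0142 and 0.00484 for DNAJC3). MANF, a secreted ER stress factor, differed by 0.53 ± 0.18 under the field (adjusted p = 0.0635, and 0.00649 with the block) and 0.23 ± 0.18 without it. The co-chaperones DNAJB9 and DNAJB11 gave 0.44 ± 0.28 and 0.31 ± 0.26 under the field, and 0.34 ± 0.28 and 0.27 ± 0.26 without it. The other probe sets of DNAJB9 gave −0.49 and −0.79 under the field, and 0.14 and 0.07 without it. With the mean of its probe sets DNAJB9 gave −0.28 under the field. SDF2L1, a BiP cofactor, and CRELD2, an ER stress protein, gave 0.15 ± 0.36 and −0.17 ± 0.23 under the field, and −0.06 ± 0.36 and −0.33 ± 0.23 without it. CALR, calreticulin, gave −0.56 ± 0.42 under the field, where its replicate 1 of CL1-5 was low, and 0.15 ± 0.42 without it, and its other probe sets gave 0.22 and 0.20 under the field.

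Of the 3 disulfide isomerases none passed in the fit of 4 group means, and PDIA3 passed with the block and from replicates 2 and 3 alone. PDIA3, which works with calnexin on glycoproteins, read 6624, 12400 and 12080 in CL1-5, against 4202, 6386 and 6285 in CL1-0 under the field. Without the field it read 6609, 9610 and 9250 in CL1-5, against 4009, 6377 and 5913 in CL1-0. Replicate 1 was the lowest in each group, and the lines did not overlap. The difference was 0.85 ± 0.29 under the field (adjusted p = 0.0587, and 0.000105 with the block) and 0.65 ± 0.29 without it (0.153, and 0.000754 with the block), and from replicates 2 and 3 alone it was 0.95 (adjusted p = 9.11e-05) and 0.62 (adjusted p = 0.00145). Under the field PDIA3 also passed with quantile normalization (adjusted p = 0.0401), and without replicate 1 of CL1-5 under the field (0.0119) or replicate 1 of CL1-0 without it (0.0493). PDIA4 gave 0.01 ± 0.17 and 0.06 ± 0.17, and PDIA6 gave 0.31 ± 0.21 and 0.18 ± 0.21. The intervals of PDIA4, −0.35 to 0.38 and −0.30 to 0.42, exclude a 2-fold difference.

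Of the degradation factors, EDEM1, which marks misfolded glycoproteins for removal, differed by 0.56 ± 0.24 under the field (adjusted p = 0.143, and 0.0112 with the block) and 0.50 ± 0.24 without it (0.201, and 0.0206 with the block). HERPUD1, whose promoter is shown above, gave 0.40 ± 0.29 and 0.19 ± 0.29. SEL1L, a scaffold of the degradation complex, gave 0.19 ± 0.21 and 0.02 ± 0.21, but its probe sets disagreed, from −2.02 to 1.26 under the field. Of the 22 members with more than 1 kept probe set, 14 had the same sign on all of them in both comparisons of the lines.

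**Figure D3:**
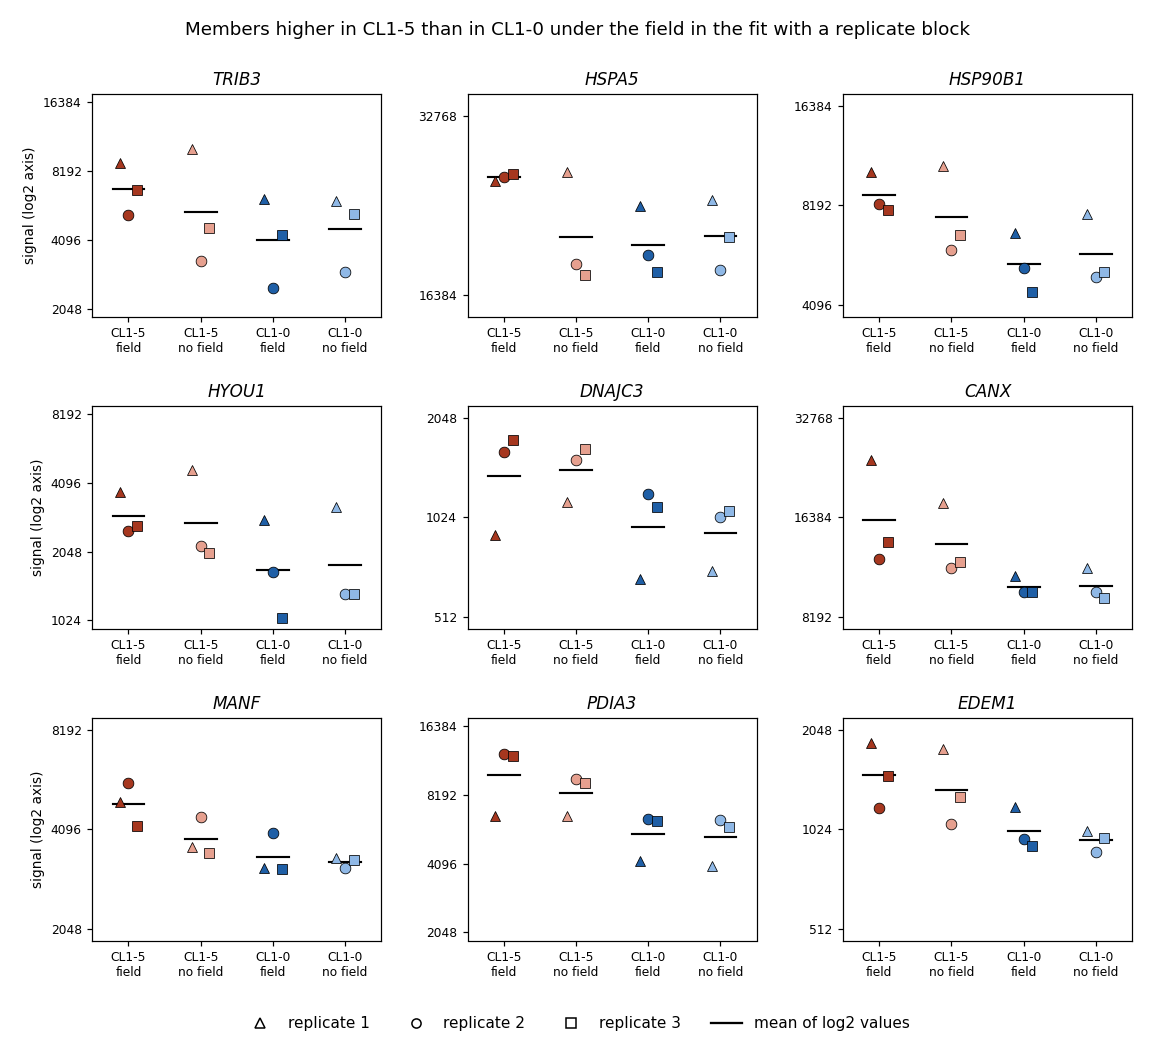
Signal on each array (log2 axis) for the 9 members higher in CL1-5 under the field in the fit with a replicate block, with triangles, circles and squares for replicates 1, 2 and 3 and a bar at the mean of the log2 values. Replicate 1 is set apart within its groups, high for TRIB3 and HYOU1 and low for PDIA3 and DNAJC3, and none of the 9 passed in the fit of 4 group means.

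Further genes of the same pathways were read from a list of 78, of which 72 were tested. Under the field 10 were lower in CL1-5 and 7 higher, and without it 9 were lower and 5 higher, against 9.63% and 9.81% of all genes under the field and 8.93% and 9.03% without it. These shares apply to the lists that follow too. Of 19 further ATF4 targets, 7 were lower and 2 higher under the field, and 6 were lower and 1 higher without it. Of 23 further ER folding and degradation genes, 3 were higher at each setting and 0 lower. Of 11 aminoacyl-tRNA synthetases 1 was lower at each setting, and of 12 genes of eIF2 and its kinases and phosphatases 2 were lower at each setting and 1 was higher under the field. Of 7 further ER transcription factor genes 1, CREB3L1, was higher at each setting.

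GDF15, a secreted stress cytokine, had the largest fall of these without the field. It read 358.6, 89.2 and 176.8 in CL1-5, against 1663.8, 1948.7 and 2697.9 in CL1-0 under the field, and 317.1, 155.9 and 75.3 in CL1-5, against 1208.2, 2403.7 and 3013.3 in CL1-0 without it. The lines were separated at both settings, with differences of −3.53 ± 0.58 (11.6-fold lower, adjusted p = 0.00113) and −3.73 ± 0.58 (13.3-fold lower, adjusted p = 0.000756). With the mean of its probe sets the differences were −1.96 and −2.82, and from replicates 2 and 3 alone −4.19 and −4.63. The values of 89.2 and 75.3 in CL1-5 lay close to the medians of their arrays, 62 and 63.3, which limits the size of these falls. ATF3, a stress transcription factor, was lower by −1.54 ± 0.43 under the field (adjusted p = 0.0244) and −2.42 ± 0.43 without it (5.33-fold lower, adjusted p = 0.00194). INHBE, which encodes an activin chain, was below the array median on all 3 CL1-5 arrays under the field and was at least 2.23-fold lower there (adjusted p = 0.00519).

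CREB3L1, an ER-bound transcription factor, read 329.2, 159.2 and 251.4 in CL1-5, against 60.6, 14 and 84 in CL1-0 under the field, and 508.7, 228.4 and 191.3 in CL1-5, against 30.1, 26.6 and 19.4 in CL1-0 without it. The CL1-0 arrays were below the array median on 2 of 3 under the field and on all 3 without it. With the dim arrays raised to their median, CREB3L1 was at least 3.35-fold higher in CL1-5 under the field (adjusted p = 0.0158) and at least 4.45-fold higher without it (adjusted p = 0.00238). The first call was lost without CL1-5 replicate 1 or 3 under the field (adjusted p = 0.0539 and 0.0508). STC2, a secreted glycoprotein of the ER stress response, was 2.70-fold higher under the field (1.43 ± 0.40, adjusted p = 0.0258). This call was lost without CL1-5 replicate 1 or 3 or CL1-0 replicate 2 or 3 under the field (adjusted p of 0.0664 to 0.101). It was also lost with the mean of probe sets (1.05, adjusted p = 0.14). EDEM3, of the degradation pathway, was 3.51-fold higher without the field (1.81 ± 0.56, adjusted p = 0.0439). Its call was lost in 8 of the 12 fits that each left out 1 array (adjusted p of 0.0554 to 0.166). With all arrays it was also lost with no filter (0.0538), no eBayes trend (0.0618) and only the groups compared (0.0822).

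The field itself moved no member past the test. In CL1-5, in CL1-0, averaged over both lines, and in the difference of the response between the lines, 0 of 40 members and 0 of 13882 genes (0%) passed in limma, and the replicate block also gave 0 members in each. At an unadjusted p below 0.05 there were 1, 0, 0 and 0 members without the block and 5, 0, 2 and 0 with it. The shares of all genes were 1.86%, 0.958%, 0.98% and 1.08% without the block and 7.1%, 2.29%, 3.12% and 4.6% with it. The 95% interval lay within a 2-fold change in either direction for 28 of 40 members in CL1-5, 28 in CL1-0, 37 for the average and 15 for the difference. A 2-fold response of the other members is therefore not excluded.

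In CL1-5 the 4 members with the smallest p were ASNS, MANF, HSPA5 and CALR. The ASNS signals, given above, were 8060, 7374 and 4944 under the field and 4752, 3994 and 5596 without it, and the groups overlapped at replicate 3. The difference was 0.49 ± 0.20 (95% interval 0.05 to 0.93, adjusted p = 1, and 0.681 with the block), and ASNS was the member under 0.05 before adjustment. MANF read 4959, 5650 and 4179 under the field and 3613, 4453 and 3458 without it, above its own replicate in each pair (0.36 ± 0.18, adjusted p = 1). HSPA5 gave 0.33 ± 0.18, with replicates 2 and 3 above their pairs and replicate 1 about level. CALR read 904.4, 3516 and 3504 under the field and 4073, 3307 and 3000 without it. Its difference of −0.62 ± 0.42 came from 1 array: without replicate 1 of the field group it was 0.03, and the other CALR probe sets gave −0.23 and 0.12.

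Of the 17 ER members in CL1-5, 14 were above 0 under the field with a median of 0.18 log2, against −0.01 over all genes. From replicates 2 and 3 alone 16 were above 0 with a median of 0.19, while 11 were above 0 without replicate 1 under the field (median 0.21) or without replicate 2 at 0 mV/mm (median 0.12). The medians of the 3 replicate pairs were 0, 0.17 and 0.22. CANX, MANF, PDIA3, PDIA6 and EDEM1 were above their pair in all 3 (29.4% of the 17, against 14.2% of all genes). They were the only such members in CL1-5, 5 of all 40 (12.5%), with 0 among the ATF4 response members. In pair 1 PDIA3 was about level (6624 under the field and 6609 without it). Of the 19 ATF4 response members, 9 were above 0 with a median of −0.01. In CL1-0, 10 of the 17 ER members were above 0 with a median of 0.01 and 9 of the 19 ATF4 response members with a median of 0. There 3 of the 17 ER members (17.6%) were above their pair in all 3, with PDIA3 and PDIA6 again among them. The same held for 3 ATF4 response members (15.8%) and for 6 of all 40 (15%), against 15% of all genes.

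The 4 members with the smallest p in CL1-0 were NUPR1 (0.76 ± 0.61), ERN1 (−0.29 ± 0.29), ATF5 (0.27 ± 0.31) and DDIT3 (−0.34 ± 0.46), all at an adjusted p of 1. NUPR1 read 122.4, 213.4 and 191.7 under the field and 75.09, 82 and 168.5 without it, and was above its pair in all 3. For DDIT3 the sign turned when an array was left out, to 0.09 without replicate 2 under the field and 0.02 without replicate 3 without it. Averaged over the lines, ASNS (0.25 ± 0.14), MANF (0.21 ± 0.13), NUPR1 (0.64 ± 0.43) and PDIA6 (0.22 ± 0.15) had the smallest p. In the difference of the responses, CL1-5 minus CL1-0, they were ASNS (0.48 ± 0.29), HSPA5 (0.38 ± 0.25), CALR (−0.71 ± 0.60) and MANF (0.30 ± 0.26), each with an interval that holds 0.

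**Figure D4:**
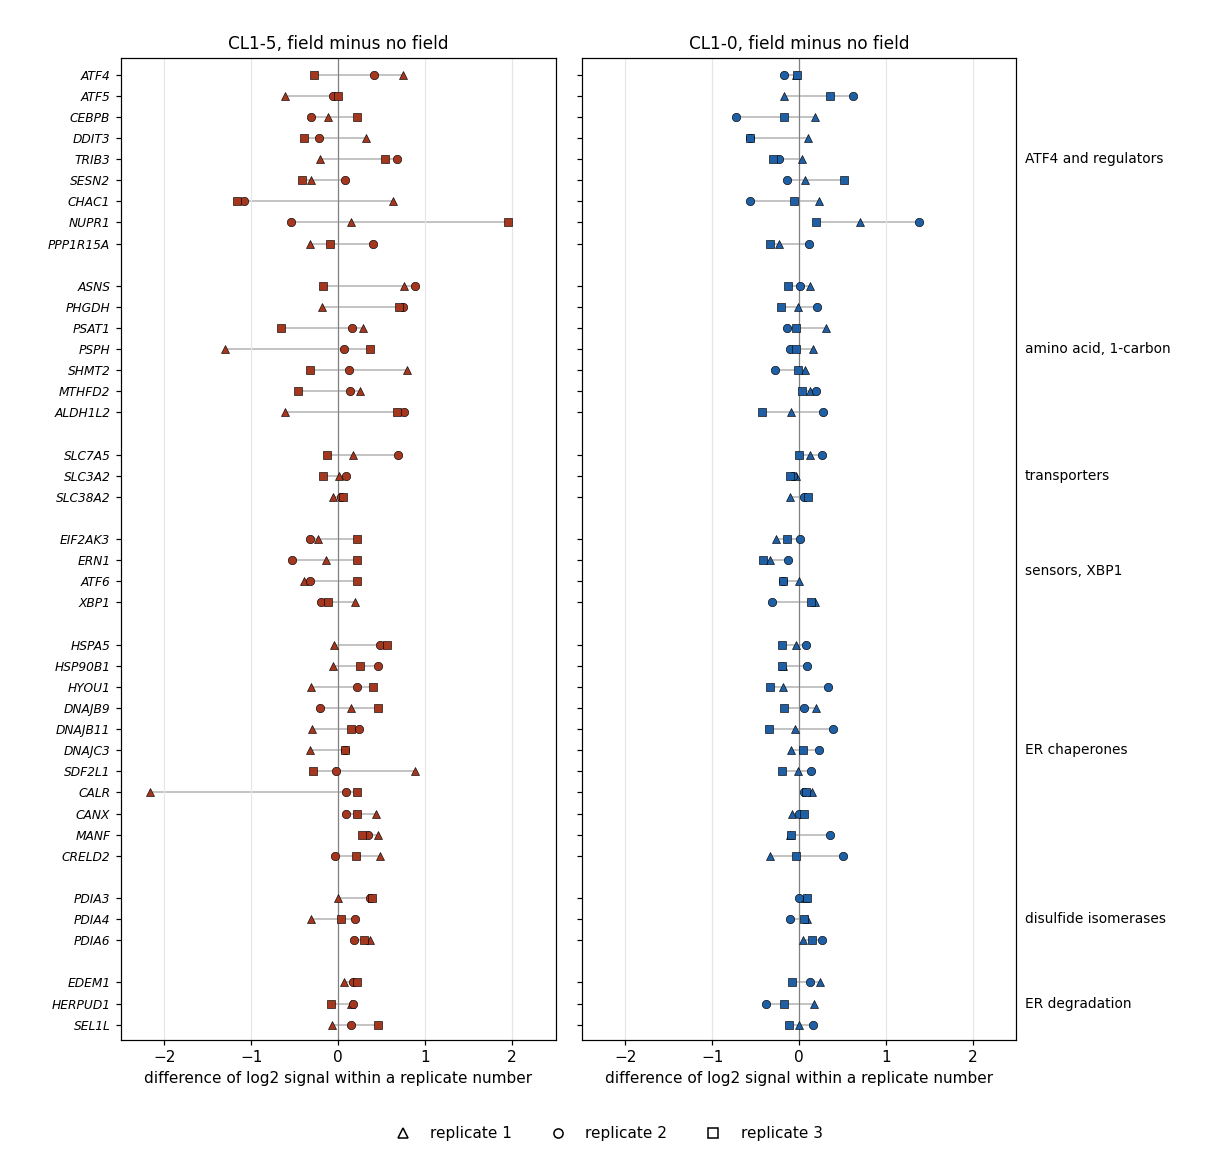
Field minus no field, as the difference of log2 signal within each replicate number, for the 40 members in CL1-5 (left) and CL1-0 (right), with triangles, circles and squares for replicates 1, 2 and 3. The points lie on both sides of 0 for most members, those of the ER members in CL1-5 lean to the right, and the CALR point of replicate 1 in CL1-5 lies far to the left.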

How the data were processed

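RNA of the 12 samples was hybridised to Affymetrix arrays. The deposited values are linear intensity values that, per the submitters' processing notes, came from MAS5. Its version is not given in the sources used here, nor are detection calls. With 2% left out at each end, the mean of an array was 500.07 to 500.08, and no further scaling was applied. Values under 1 (3691) were set to 1 and log2 was taken. Of 54675 probe sets, 31890 were above their own array median on at least 3 arrays; 41091 carry 1 symbol, 1801 several, 11721 none and 62 are controls. Genes were read from probe sets of 1 symbol, and the one with the highest mean was kept.

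Comparisons used lmFit and eBayes (trend) of limma 3.58.1, run in R 4.3.3 beside the data.table package, version 1.17.8, on 4 group means over 12 arrays in 6 comparisons, with Benjamini-Hochberg adjustment over 13882 genes at 0.05. Members, lists, tests and alternatives were chosen with earlier results of these data known. As tested results, members past the test are named, or the 4 with the smallest p, and of further pathway genes at most 2 in each direction. Members just short of the test, those called only with the block and their other probe sets were named after their values were seen. Folds given as at least a value set values below the array median to it, and the number of arrays limits precision. The steps were tested on simulated data.

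Replicate numbers were taken as pairs from the data, since the labels only number the replicates. After removal of group means, same-numbered arrays correlated at 0.187 to 0.609 between the field groups of a line and at 0.189 to 0.471 between the lines, and other numbers at −0.505 to 0.284 and −0.36 to 0.227. Replicate 1 also lacked the spike-in signal, so a pairing and a batch cannot be told apart. Alternatives were quantile normalization, median centring, a pseudocount (10th percentile, 5.05), a floor at the array median, no filter, a stricter filter (60th percentile on 6 arrays), the mean of probe sets, no eBayes trend, a fit to the compared groups alone, the replicate block, only replicates 2 and 3, and each array left out.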

Additional observations from a re-analysis of the deposited data

How the results depend on the processing

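No member past the test in the comparison of the lines changed direction under an alternative run. Of all 40 members, 10 did so under the field and 11 without it, each with a difference of at most 0.56 and 0.34 in size, and HSPA5 without the field was 0.63 with the mean of probe sets, against −0.01. Among the members with the smallest p for the field, CALR and DDIT3 changed direction. For CALR in CL1-5 the field difference was 0.16 from replicates 2 and 3 alone and 0.03 without replicate 1 of the field group, and the difference between the lines was 0.09 from replicates 2 and 3 alone. For DDIT3 in CL1-0 it was 0.09 without replicate 2 under the field and 0.02 without replicate 3 without it. With each array left out these field differences ranged from −0.95 to 0.03 for CALR and from −0.66 to 0.09 for DDIT3. The cause was not tested. With the replicate block, genes past the test in the lines numbered 5289 under the field and 4926 without it, against 2699 and 2492, and 4416 and 4284 from replicates 2 and 3 alone. With the block and only the groups compared, chosen after seeing the data, they numbered 4273 and 4268. Members higher in CL1-5 under the field numbered 9 with the block, 6 from replicates 2 and 3, 8 with the block and only the groups compared, 3 with the mean of probe sets and 1 with quantile normalization, against 0. Without the field they numbered 7, 4, 6 and 3 in the first 4 of these settings, against 0. Members lower without the field numbered 12, 10 and 12 in the first 3, against 6. With each array left out, members higher ranged from 0 to 2 and lower from 2 to 9 under the field, and from 0 to 1 and 4 to 8 without it, and 1 gene passed for the field in CL1-0 in 1 such fit, against 0. All genes past the test then ranged from 1838 to 2899 under the field and from 1726 to 2840 without it. The replicate block changed no call in the field comparisons. Centring on the median moved the median of all genes without the field to −0.11, against −0.03. Signal near the array median limits ALDH1L2, CREB3L1, INHBE, GDF15 in CL1-5 and NUPR1 in CL1-0, and 3 arrays a group limit the rest.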
